A study of Komagataella pastoris with 4 samples.

Results

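The deletion mutant of Mxr1 and the deletion mutant of Gcn5 of the methylotrophic yeast Komagataella pastoris (Pichia pastoris) were compared directly with each other, with no wild-type value in the ratio. Both strains, like the GS115 wild type and the Gal83 deletion mutant of the same series, were histidine auxotrophs, and the 3 deletion strains, unlike the wild type, also carried Zeocin resistance. Every culture was grown for 14 h in YNBM, minimal medium in which methanol was the carbon source, and rRNA was depleted from total RNA with a kit made for bacteria before sequencing. Rows of the deposited count table entered when their counts averaged 20 or more across the 4 libraries, which kept 5420 of 5427 rows. The labels do not say whether a strain was 1 clone or how many transformants were tested.

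Each strain had 1 library, so no test of a strain difference was possible and no p-value, SD or replicate spread is given. Rows are described by size. A log2 ratio is the count in the Mxr1-labelled library over the count in the Gcn5-deletion library after scaling, so that positive values are higher in the Mxr1-labelled library, and it is given with an exact Clopper-Pearson 95% interval that covers counting error only. A row counts as higher or lower when the ratio was at least 2-fold and that interval left out equality. Where 4 values follow each other they are scaled counts, which are counts divided by the library's size factor, with the wild type first, then the Mxr1-labelled library, the Gal83 deletion and last the Gcn5 deletion.

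Mxr1 is a zinc-finger transcription factor of methylotrophic yeasts that activates the genes of methanol use, among them alcohol oxidase, and that is also known to act on acetate and amino acid metabolism in this species. Gcn5 is a histone acetyltransferase, the catalytic subunit of the SAGA and ADA complexes, which acetylates histone tails at promoters and takes its acetyl groups from acetyl-CoA. Methanol is oxidised in peroxisomes to formaldehyde, which is either burned for energy or fixed onto xylulose 5-phosphate. Acetyl units move between compartments as acetylcarnitine and enter the glyoxylate cycle when yeast grow on acetate or ethanol.

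The 2 libraries compared held 34646983 and 30741258 counts, the Mxr1-labelled one first, with size factors of 0.838 and 0.752, and the wild type and the Gal83 deletion held 48539082 and 30582006. The median count of a kept row was 1632 in the Mxr1-labelled library and 1451 in the Gcn5 deletion, and the median width of the 95% counting interval was 0.208 on the log2 scale, so counting error was small beside the 2-fold limit for most rows. No row was at 0 in any library, the lowest count being 2 or 3 in each. The 20 highest rows held 31.8% of the counts of the Mxr1-labelled library and 29.7% of those of the Gcn5 deletion, against 21.6% for GS115 and 16.4% for the Gal83 deletion.

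The row described as the histone acetyltransferase of histones H2B and H3 (gene3103), taken here as Gcn5, had 2570, 1840, 3060 and 3 unscaled counts in that order. Only 3 counts were left in the library labelled as the Gcn5 deletion, and the log2 ratio was 8.88 with an interval of 7.56 to 11.38. No row is described as Mxr1. The zinc-finger factor described as responsive to carbon source (gene4868) had scaled counts of 6128, 13855, 13487 and 5495, so it was not reduced where Mxr1 was to be deleted. The label of that library was therefore not checked by a targeted gene, and it is called the Mxr1-labelled library throughout. Of the rows for beta-subunits of the Snf1 kinase, gene1360 had 5215, 3996, 8 and 2263 unscaled counts, with 8 in the Gal83 deletion. In gene161, whose description names GAL83 and glucose repression, the counts were 13620, 3707, 5513 and 2112, so that row was not lost in the Gal83 deletion. Between the Mxr1-labelled library and the Gcn5 deletion these rows differed by 0.67 and 0.66 on the log2 scale, under the 2-fold limit.

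Of the 5420 rows, 437 (8.06%) were at least 2-fold higher in the Mxr1-labelled library than in the Gcn5 deletion and 525 (9.69%) were at least 2-fold lower. At 10-fold or more, 35 rows (0.646%) were higher and 32 (0.59%) were lower. The median log2 ratio over all rows was 0.00, the middle 50% of rows lay between -0.47 and 0.43, and 61.1% of rows differed by less than 1.5-fold. The rows that differed were more often ones with high counts. Of the third of rows with the highest mean counts 24.6% passed the 2-fold rule, against 14.4% of the third with the lowest. The 35 rows at least 10-fold higher took 21.6% of all counts of the Mxr1-labelled library and 0.786% of those of the Gcn5 deletion. The 32 rows at least 10-fold lower took 0.41% and 9.58% in the same order. In these bulk cultures, a change in the share of cells that hold a transcript and a change in its amount per cell cannot be told apart.

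**Figure D1:**
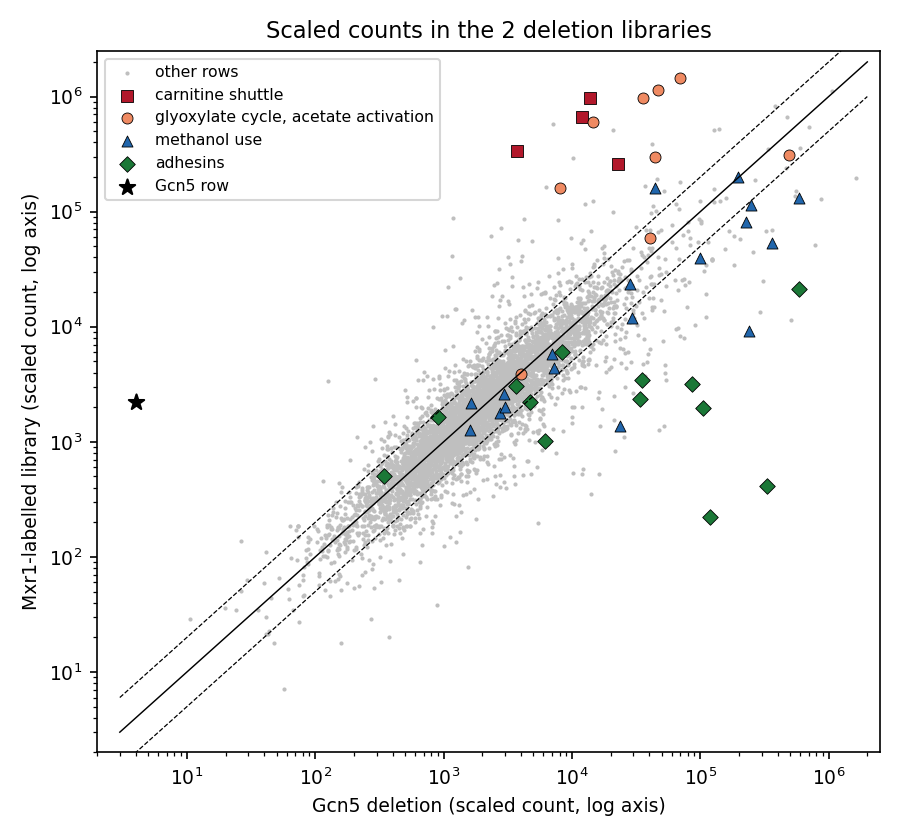
Scaled counts of 5420 rows in the Gcn5 deletion (x axis, log scale) and in the Mxr1-labelled library (y axis, log scale), 1 library each. Grey points are rows, coloured symbols are the members of 4 gene lists, the solid line is equality and the dashed lines are 2-fold. The 4 carnitine shuttle rows lie far above the upper dashed line, 9 of 13 adhesin rows lie below the lower one, and the Gcn5 row stands alone at the left.

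Apart from the Gcn5 row itself, the highest ratio belonged to a carnitine carrier. All 4 rows of the carnitine shuttle were higher there, where 8.06% of all rows were, and their median log2 ratio was 5.98. The mitochondrial carnitine carrier Crc1 (gene2069), which exchanges acylcarnitine across the inner membrane, had scaled counts of 4614, 335473, 1667 and 3715. The Mxr1-labelled library stood 90.3-fold above the Gcn5 deletion (log2 ratio 6.50, interval 6.44 to 6.55), and the other 3 libraries lay between 1667 and 4614. Carnitine acetyl-CoA transferase of mitochondria and peroxisomes (gene4293), which makes acetylcarnitine, had scaled counts of 11206, 976053, 32864 and 13847 and a log2 ratio of 6.14. The outer mitochondrial carnitine acetyltransferase (gene890) had 14032, 668422, 18230 and 11899 and a log2 ratio of 5.81. The fourth row, carnitine acetyltransferase gene3523, was less far apart at 23265, 260348, 21768 and 22939 and a log2 ratio of 3.50. For each of the 4 the Gcn5-deletion value was within 1.5-fold of the wild type and the Mxr1-labelled value was the highest of the 4 libraries. Gamma-butyrobetaine dioxygenase (gene1242), the last enzyme of carnitine synthesis in organisms that make it, was among the 15 described rows with the highest ratio. Its scaled counts were 24895, 163373, 41496 and 6292, so the Gcn5 deletion was also the lowest of the 4, and the log2 ratio was 4.70.

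Acetate activation and the glyoxylate cycle were also higher in the Mxr1-labelled library. Of the 9 listed rows 6 were higher and 0 lower, beside 8.06% and 9.69% of all rows, with a median log2 ratio of 4.32. Over the 15 rows as first matched, before members of other pathways were dropped with results known, 8 were higher and the median was 1.01. Isocitrate lyase (gene1180), which splits isocitrate into succinate and glyoxylate, had scaled counts of 12098, 605879, 32325 and 14605 and was 41.5-fold higher in the Mxr1-labelled library than in the Gcn5 deletion (log2 ratio 5.37, interval 5.35 to 5.40). Malate synthase 2 (gene5220), which joins glyoxylate to acetyl-CoA, had 23416, 1137890, 18077 and 47132 and a log2 ratio of 4.59. The second malate synthase row, malate synthase G (gene1316), did not follow it, at 10965, 3910, 5959 and 3982 and a log2 ratio of -0.03. The citrate synthase row gene444 had 51984, 977981, 83524 and 36068 and a log2 ratio of 4.76. Both acetyl-CoA synthetases, which turn acetate into acetyl-CoA, were higher by a like amount. Acetyl-CoA synthetase 1 (gene2210) had 35822, 1446888, 23850 and 68936 and a log2 ratio of 4.39. Acetyl-CoA synthetase 2 (gene3907) had 3048, 160412, 11201 and 8019 and a log2 ratio of 4.32. Of 2 malate dehydrogenase rows, gene4503 was higher with a log2 ratio of 2.74 and gene2804 was not, at 0.53. Phosphoenolpyruvate carboxykinase (gene1609), the gluconeogenic exit of the pathway, was nearer in the 2 libraries, at 312303 against 489372 and a log2 ratio of -0.65.

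Rows that border on this pathway were found on both sides. The succinate/fumarate carrier of mitochondria (gene4652), which exports the succinate of the glyoxylate cycle in exchange for fumarate in Saccharomyces cerevisiae, had 11688, 294871, 11778 and 10204 and a log2 ratio of 4.85. An aldehyde dehydrogenase row (gene3263) had 7171, 507025, 7876 and 20706 and a log2 ratio of 4.61. Its list of ethanol and aldehyde enzymes held 16 rows, of which it and gene2122, at 1.89, were higher and 3 were lower. Of all rows 8.06% were higher and 9.69% lower, and the list median was -0.34. Over the 21 rows as first matched, before members were dropped with results known, 4 were higher and 3 lower, with a median of 0.02. The major pyruvate decarboxylase (gene4154), which makes acetaldehyde from pyruvate, went the other way at 104872, 25187, 47095 and 308202 and a log2 ratio of -3.61. Chosen after their values were seen, acetyl-CoA hydrolase (gene4076) was higher by 3.22 and the mitochondrial carrier for CoA (gene266) by 3.52 on the log2 scale. A pair of rows described as phenylpyruvate decarboxylase, also chosen after their values were seen, were higher by 4.38 (gene4266) and 3.89 (gene5076).

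**Figure D2:**
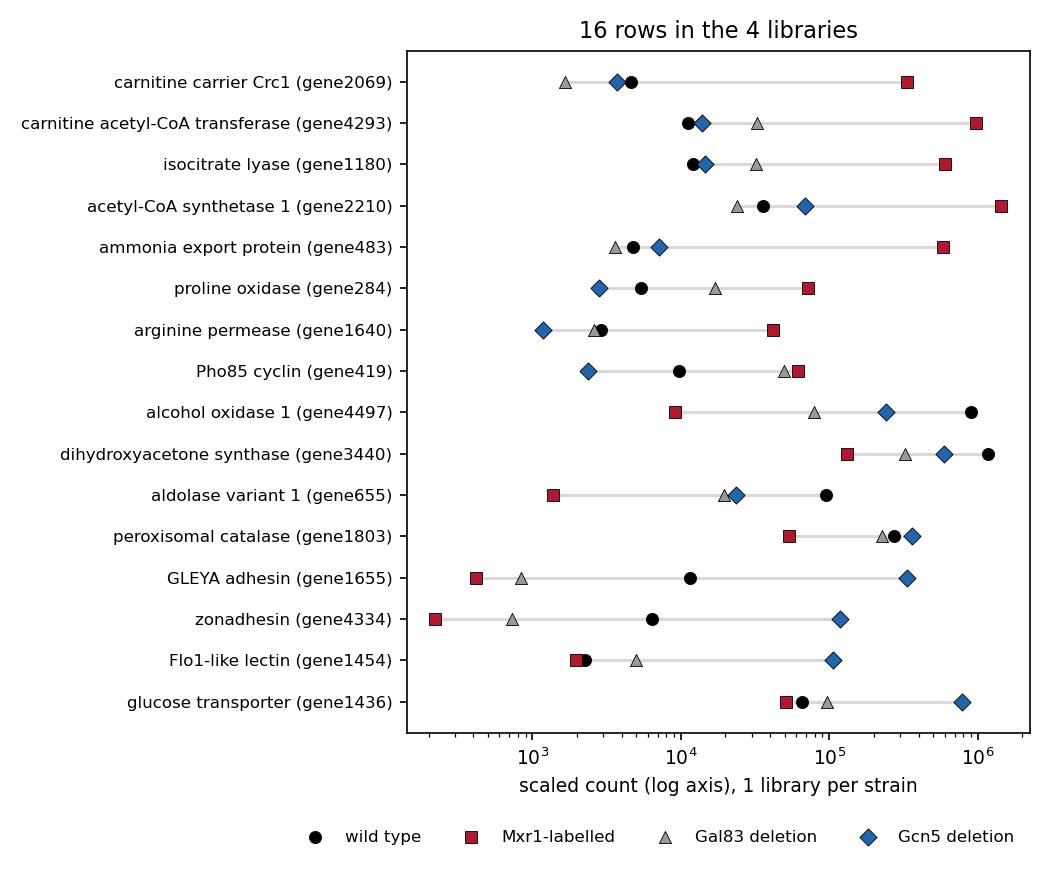
Scaled counts (log axis) of 16 rows in the wild type, the Mxr1-labelled library, the Gal83 deletion and the Gcn5 deletion, 1 symbol per library, with a grey line from the lowest to the highest. The Mxr1-labelled library stands to the right in the upper 8 rows and to the left in the lower 8, and for the GLEYA adhesin, zonadhesin, the Flo1-like lectin and the glucose transporter the Gcn5 deletion is the highest of the 4.

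In the tricarboxylic acid cycle 10 of 19 rows were higher in the Mxr1-labelled library and 1 was lower, beside 8.06% and 9.69% of all rows, with a median log2 ratio of 1.22. No row of this list, which does not hold the citrate synthase named above, exceeded 2.18. Over the 23 rows as first matched, before members were dropped with results known, 14 were higher and 1 lower, with a median of 1.22. Succinate dehydrogenase, which links the cycle to the respiratory chain, had 4 of its 5 rows past 2-fold. Its cytochrome b subunit (gene1346) had 6020, 24527, 5399 and 5411 and a log2 ratio of 2.18, its flavoprotein (gene4600) 1.54, a membrane anchor (gene1978) 1.68 and its iron-sulfur protein (gene3121) 1.28. One of the pair of aconitase rows (gene108) had 162630, 520320, 77715 and 138987 and a log2 ratio of 1.90. Fumarate hydratase (gene3648) had a log2 ratio of 1.22, pyruvate carboxylase (gene1676), which refills the cycle from pyruvate, 1.38, and the beta subunit of succinyl-CoA ligase (gene2119) 1.34. The single lower row was an isocitrate dehydrogenase (gene2422), at -1.21.

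The pyruvate dehydrogenase complex, which supplies acetyl-CoA from pyruvate, had 3 subunit rows under the 2-fold rule. Its E1 beta (gene1465), E1 alpha (gene1997) and E2 (gene360) rows had log2 ratios of -0.76, -0.50 and -0.35, all below 0 and within 2-fold. The rows described as pyruvate dehydrogenase kinase, the enzyme that switches the complex off, were looked at after these values were seen. The kinase row gene533 had 7475, 36986, 17939 and 3982 and a log2 ratio of 3.22, gene4575 had 1899, 16929, 1928 and 2761 (log2 ratio 2.62), and gene3958 had 2649, 2576, 2826 and 1256 (log2 ratio 1.04). The first 2 were highest in the Mxr1-labelled library, and gene3958 was at the wild-type level there and lowest in the Gcn5 deletion. In the respiratory chain and ATP synthase 1 of 70 rows was higher and 1 lower, 2.86% in either direction beside 17.7% of all rows. The median was 0.24, and the rows leaned to one side, with 56 above 0 and 14 below. The 1 higher row was the succinate dehydrogenase cytochrome b subunit already named. The succinate dehydrogenase rows gene4600, gene1978 and gene3121, given above as past 2-fold, were not in this list, so its counts leave them out.

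Lipid and amino acid synthesis held a few rows of larger ratio. In fatty acid synthesis, acetyl-CoA carboxylase (gene1083) had 57249, 111034, 15467 and 42815 and a log2 ratio of 1.37, the fatty acid synthase alpha subunit (gene1133) 1.22 and the beta subunit (gene313) 2.16. For gene1133 and gene313 the Gcn5-deletion counts were 31769 and 37079 and the wild-type counts 61027 and 80183, so the Gcn5 deletion lay below the wild type for both. These rows belong to a list of sterol, lipid and inositol synthesis, of which 6 of 47 were higher and 2 lower around a median of 0.04, and its 17% called in either direction was near the 17.7% of all rows. In lysine synthesis, homocitrate synthase (gene1275), which condenses acetyl-CoA with 2-oxoglutarate, had 43751, 98593, 90474 and 20920 and a log2 ratio of 2.24, saccharopine dehydrogenase (gene795) had 13839, 59062, 21116 and 9881 (log2 ratio 2.58), and homoaconitase (gene4526) had 1.08. Over amino acid synthesis as a whole 8 of 50 rows were higher and 1 was lower, beside 8.06% and 9.69% of all rows, with a median of 0.41. Inositol 1-phosphate synthase (gene1782), the first enzyme of inositol synthesis, was the far exception, at 897, 522, 4596 and 16175 and a log2 ratio of -4.95, and the Gcn5 deletion was the highest of the 4 libraries for it.

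Nitrogen rows lay on both sides, and most were under the 2-fold rule. The row with the next-highest ratio after Crc1 was a transmembrane protein of ammonia export (gene483), a relative of the Ato proteins of Saccharomyces cerevisiae, at 4741, 581683, 3621 and 7096 and a log2 ratio of 6.36. Its sister row gene717 went the other way at 21247, 2862, 15203 and 8609 (log2 ratio -1.59). Proline oxidase (gene284), the first step of proline breakdown in mitochondria, had 5402, 72218, 17137 and 2818 and a log2 ratio of 4.68. The proline permease gene2332 had 7042, 6740, 24400 and 1184 (log2 ratio 2.51), with the Gcn5 deletion the lowest and the Mxr1-labelled library at the wild-type level. The rows gene1986 and gene4655, described as arginase/deacetylase and chosen after their values were seen, were higher by 1.86 and 1.57 on the log2 scale. An aspartate aminotransferase-like row (gene5269) had 8987, 88519, 27201 and 1183 and a log2 ratio of 6.22, and the neighbouring row of the same description (gene5270) had 2.30. The lower rows included uptake of urea and ammonium and uricase (gene1975), an enzyme of purine breakdown, at -1.87. The Dur3 urea transporter (gene2970) had 4596, 336, 3438 and 2418 and a log2 ratio of -2.85, and the ammonium transporters MEP2 (gene1243) and MEP3 (gene2102) had -1.38 and -1.15. For these 3 uptake rows both deletion libraries were below the wild type. In all 5 of 38 nitrogen rows were higher and 6 lower, beside 8.06% and 9.69% of all rows, and the median was 0.11. Over the 51 rows as first matched, before members were dropped with results known, 5 were higher and 9 lower. With upper-quartile factors 3 of the 38 were higher and 7 lower.

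Amino acid permeases were likewise spread in both directions, with 5 of 20 higher, 4 lower, beside 8.06% and 9.69% of all rows, and a median of 0.65. An arginine permease (gene1640) had 2884, 41519, 2586 and 1171 and a log2 ratio of 5.15, and a general amino acid permease (gene336) had 48703, 123506, 37746 and 14542 (log2 ratio 3.09). On the other side were a proton-coupled oligopeptide transporter (gene5418) at 2152, 427, 435 and 3573 (log2 ratio -3.06), and the general amino acid permease AGP2 (gene3425) at 12174, 6013, 13695 and 27142 (log2 ratio -2.17). The transcription factor of general amino acid control, Gcn4 (gene1181), was looked at after its value was seen and had 28820, 193977, 80612 and 46138 and a log2 ratio of 2.07. Gcn4 lies beside isocitrate lyase in the table's order, and the files do not say whether reads were counted by strand. A Pho85 cyclin described as induced by Gcn4 (gene419) had 9750, 61318, 49329 and 2353 and a log2 ratio of 4.70, with the Mxr1-labelled library and the Gal83 deletion high and the Gcn5 deletion lowest.

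By autophagy yeast deliver cytoplasm to the vacuole for breakdown. Of 19 rows for autophagy and vacuole proteases 4 were higher, 3 autophagy rows and 1 vacuolar protease, and 0 lower, beside 8.06% and 9.69% of all rows, and the median was 0.08. The kinase Atg1 (gene2351), which starts autophagy, had 8446, 29305, 21727 and 7765 and a log2 ratio of 1.92. The membrane-bound ubiquitin-like protein Atg8 (gene4630) had 4606, 21916, 16752 and 5367 (log2 ratio 2.03), and the conjugating enzyme Atg3 (gene3604) had 4783, 11717, 11729 and 3272 (log2 ratio 1.84). For Atg1, Atg8 and Atg3 the Gcn5 deletion was within 1.5-fold of the wild type and the Gal83 deletion was as high as, or nearly as high as, the Mxr1-labelled library. Vacuolar proteinase B (gene557) had 69399, 507521, 114434 and 127244, 3.99-fold higher than in the Gcn5 deletion, and the Mxr1-labelled library was far the highest of the 4. Acid protease rows were further apart, with gene4025 at 4.35 and gene4183 at 3.22. A papain-like cysteine protease (gene5264) at 34717, 528, 3886 and 11959 and a subtilisin-like protease (gene2877) at 10532, 848, 994 and 5875 had log2 ratios of -4.50 and -2.79. Among rows for subtilisin, papain-like and acid proteases 5 of 17 were higher and 3 lower.

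The genes of methanol use were on the lower side. Of 18 rows 8 were lower in the Mxr1-labelled library and 1 was higher, with a median of -0.69, where 9.69% of all rows were lower. Alcohol oxidase 1 (gene4497), the peroxisomal enzyme that oxidises methanol, had 898438, 9185, 79368 and 241441 scaled counts. The Gcn5 deletion stood 26.3-fold above the Mxr1-labelled library (log2 ratio -4.72, interval -4.75 to -4.68), and alcohol oxidase 1 was below the wild type in both. The second row with that description (gene5263) had 25373, 4361, 3813 and 7293. Its log2 ratio was -0.74, under the 2-fold limit, so the 2 alcohol oxidase rows were not equally apart. Reads of 2 rows as alike as these may have been divided between them by the counting, which the files do not settle.

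Dihydroxyacetone synthase, which fixes formaldehyde onto xylulose 5-phosphate, also has a pair of rows that share this limit. The first (gene3440) had 1166676, 130968, 322012 and 591407 and a log2 ratio of -2.17, and the second (gene3442) had 606934, 113355, 123611 and 250008 (log2 ratio -1.14). Dihydroxyacetone kinase (gene3432), the next step, had 179850, 39632, 53730 and 98549 (log2 ratio -1.31). Of the class II fructose-bisphosphate aldolase rows, gene655 had 95056, 1372, 19572 and 23699 and a log2 ratio of -4.11, and gene386 had 98198, 81959, 34902 and 225898 (log2 ratio -1.46). The transketolase row gene968 had 9804, 11911, 22452 and 29563 (log2 ratio -1.31). Peroxisomal catalase (gene1803), which removes the hydrogen peroxide made by alcohol oxidase, had 273117, 53820, 227452 and 360866 and a log2 ratio of -2.75. Catalase in the Gcn5 deletion was within 1.5-fold of the wild type, while alcohol oxidase was below it.

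The remaining methanol rows were close in the 2 deletion libraries. The formaldehyde-oxidising S-(hydroxymethyl)glutathione dehydrogenase (gene3220) had 198292 against 195439 scaled counts and a log2 ratio of 0.02. The transaldolase rows gene2048, gene2049 and gene2050 had log2 ratios of -0.29, -0.33 and -0.26. The ribulose-phosphate 3-epimerase rows gene3867 and gene3868 had -0.64 and -0.58, and the ribose-5-phosphate isomerase rows gene5197 and gene5198 had 0.41 and -0.19. For gene2048 and gene3220 the wild type, at 24223 and 255609, was within 1.5-fold of both deletions. For the other rows named here it was above both by more than 1.5-fold, for example at 33791 for gene2050 and 17713 for gene5198. There the deletions had 5779 against 6936 and 2595 against 2960. The single higher row of the list was fructose-1,6-bisphosphatase (gene3397), the regulated enzyme of gluconeogenesis, at 143191, 160575, 46297 and 44033 and a log2 ratio of 1.87. It was at the wild-type level in the Mxr1-labelled library and low in both other deletions.

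Rows of the organelle itself did not lean the same way. Of 32 rows for peroxisome biogenesis and membrane 2 were higher and 2 lower, shares near the background of 8.06% and 9.69%, and the median was 0.07. The lower rows were a peroxisomal nudix pyrophosphatase of coenzyme A (gene3725) at 25051, 1262, 47391 and 47273 with a log2 ratio of -5.23, and the peroxisomal membrane-associated protein 20 (gene1412) at 103743, 6417, 27410 and 40517 (log2 ratio -2.66). The higher ones were the import protein peroxin 20 (gene2559) at 1.12 and PEX17 (gene4720) at 1.45. Fatty acid beta-oxidation, also peroxisomal in yeast, had 3 of 7 rows lower and 0 higher, led by a 3-ketoacyl-CoA thiolase (gene1962) at 9010, 2411, 14524 and 7631 with a log2 ratio of -1.66. Over the 12 rows as first matched, before members were dropped with results known, 3 were lower and 0 higher, with a median of -0.47.

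**Figure D3:**
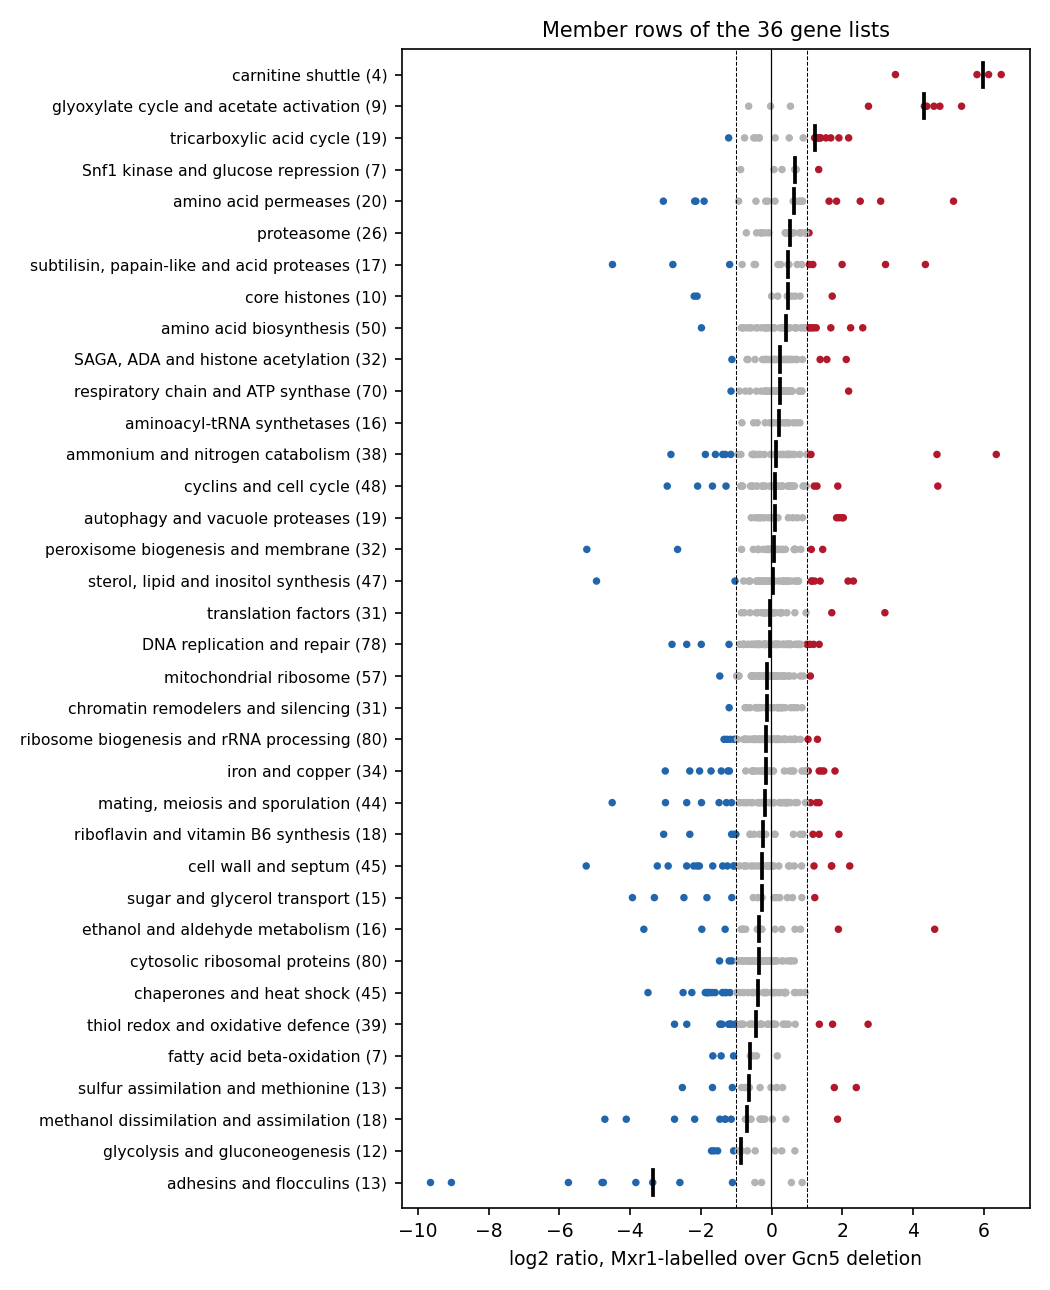
Log2 ratios, Mxr1-labelled library over Gcn5 deletion, of the member rows of 36 gene lists, ordered by median, with the number of rows in brackets. Points are rows (red higher, blue lower, grey under the 2-fold rule), short black bars are list medians, the thin line is the median of all rows and the dashed lines are 2-fold. The carnitine shuttle has the highest median, 5.98, and the adhesins have the lowest, -3.36.

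The 3 lowest ratios of all rows belonged to rows described as adhesins or as a Flo1-like lectin. Adhesins and flocculins hold yeast cells to each other or to surfaces, and the 13 rows listed were matched by description only. Of these 13 rows, 9 were lower in the Mxr1-labelled library and 0 higher, beside 9.69% and 8.06% of all rows. Their median was -3.36 and their range from -9.65 to 0.87. A row with a GLEYA adhesin domain (gene1655) had 11453, 414, 844 and 333023 scaled counts, from 17034, 347, 878 and 250549 unscaled. It was 803-fold higher in the Gcn5 deletion than in the Mxr1-labelled library (log2 ratio -9.65, interval -9.81 to -9.50). The row described as zonadhesin (gene4334) had 6442, 222, 730 and 118543 and a log2 ratio of -9.06. For both, the wild type lay between, the Gcn5 deletion above it and the Mxr1-labelled and Gal83-deletion libraries below it. The Flo1-like lectin (gene1454) had 2248, 1966, 4971 and 105673 (log2 ratio -5.75), and a second GLEYA row (gene4346) had 4156, 3202, 6035 and 86683 (log2 ratio -4.76). For these 2 rows the Mxr1-labelled library was near the wild type and the Gcn5 deletion far above the other 3 libraries. The surface glycoprotein row gene1948 had 60729, 21325, 144789 and 592377 (log2 ratio -4.80). Adhesin genes hold repeats and resemble each other, so their counts are uncertain where reads could be shared. The row of unspecified internal repeats gene2206 had 92204, 11409, 227222 and 511548 and a log2 ratio of -5.49, and no adhesin is named in its description.

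Cell wall enzymes were lower more often than higher, 12 against 4 of 45 rows, around a median of -0.26. Over all rows 9.69% were lower and 8.06% higher, so the higher count was near that share. The row described by a concanavalin A-like lectin or glucanase fold (gene4789) had 23129, 1378, 37819 and 52214 and a log2 ratio of -5.24, and here the Mxr1-labelled library alone was low. A pair of neighbouring beta-1,3-glucanosyltransferases, which elongate wall glucan, had -3.23 (gene238) and -2.93 (gene239). The glucan synthase component FKS1 (gene237), next to them in the table, had -2.04, and the wall glucosidase BGL2 (gene1281) -2.20. A KRE1-like wall protein (gene4039) had 1175, 516, 3551 and 2727 (log2 ratio -2.40). On the other side the chitin transfer protein gene628 had 6322, 10221, 9580 and 2206 and a log2 ratio of 2.21.

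Chaperones were lower in the Mxr1-labelled library in 15 of 45 rows and higher in 0, beside 9.69% and 8.06% of all rows, with a median of -0.39. The Hsp70 nucleotide exchange factor FES1 (gene3018) had 17494, 2631, 4815 and 29684 and a log2 ratio of -3.50. The Hsp70-Hsp90 adaptor Sti1 (gene2490) had 56465, 19422, 21588 and 110078 (log2 ratio -2.50), the Hsp90 row (gene946) 209771, 150554, 106154 and 552102 (log2 ratio -1.87), and the small heat shock protein row gene4715 45230, 67735, 33228 and 323488 (log2 ratio -2.26). In the last of these the Gcn5 deletion alone stood above the wild type by more than 4-fold. The endoplasmic reticulum Hsp70 row (gene2908) had -1.82, mitochondrial SSC1 (gene3950) -1.59 and Hsp60 (gene5257) -1.30, so the lower rows included cytosolic, endoplasmic reticulum and mitochondrial chaperones. The Hsp70 row described as Ssa3 (gene4104), which no list held and which was chosen after its value was seen, had 572724, 197527, 358296 and 1622938 (log2 ratio -3.04).

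In thiol redox and oxidative defence 11 of 39 rows were lower and 3 higher, beside 9.69% and 8.06% of all rows, with a median of -0.45. Beside catalase, the lower rows included a row with a domain like the ATP-binding domain of glutathione synthetase (gene1357) at 2993, 916, 1281 and 2519 (log2 ratio -1.46) and a low-count thioredoxin-like row (gene3623) at 83.4, 53.7, 153 and 286 (log2 ratio -2.40) and an interval of -2.91 to -1.94. The higher rows were a heme-binding peroxidase of the endoplasmic reticulum (gene4217) at 6344, 12211, 1152 and 1840 (log2 ratio 2.73), a Cu/Zn superoxide dismutase (gene432) at 4633, 15217, 16682 and 4600 (log2 ratio 1.73), and a further heme-dependent peroxidase. For gene4217 the Gcn5 and Gal83 deletions were low and the Mxr1-labelled library was above the wild type.

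In sugar uptake and glycolysis more rows were called lower than higher. In glycolysis and gluconeogenesis 4 of 12 rows were lower and 0 higher, with a median of -0.86, beside 9.69% and 8.06% of all rows. The list as first matched, before rows of broad superfamilies were dropped with results known, had 21 rows, 2 higher and 5 lower, with a median of -0.46. Fructose-1,6-bisphosphatase (gene3397), placed in the methanol list, was higher. Phosphoglycerate kinase (gene1130) had 72214, 47656, 93567 and 154681 and a log2 ratio of -1.70, the alpha subunit of phosphofructokinase (gene2623) 26868, 10446, 13602 and 32232 (log2 ratio -1.63), and pyruvate kinase (gene2208) 22259, 7541, 49421 and 21720 (log2 ratio -1.53). For pyruvate kinase the Gcn5 deletion was at the wild-type level. The high-affinity glucose transporter gene1436 had 65460, 51277, 96748 and 784728 and a log2 ratio of -3.94, and the Gcn5 deletion alone was high. The second high-affinity transporter, HGT1 (gene6), had 3740, 1281, 12476 and 7144 (log2 ratio -2.48). Glycerol kinase (gene4542) had 18344, 3749, 68146 and 37315 (log2 ratio -3.32), and its neighbour, the glycerol uptake facilitator (gene4541), had 12509, 5070, 49261 and 18013 (log2 ratio -1.83). The glycerol-proton symporter gene4776 was the 1 higher row among 15 for sugar and glycerol uptake, at 1.22, beside 5 lower ones.

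Transport of iron and the vitamins gave smaller groups. Of 34 iron and copper rows 7 were lower and 5 higher, beside 9.69% and 8.06% of all rows. The siderophore-iron reductase (gene5165) had 6807, 512, 1499 and 4120 and a log2 ratio of -3.01, the ferrioxamine transporters gene3047 and gene4010 had -2.31 and -1.71, and the siderophore transporter gene3632 had -1.42. The higher ones included a ferric reductase (gene1331) at 1.79, a divalent metal transporter (gene3574) at 1.48 and a high-affinity iron permease (gene852) at 1.04. The thiamine synthesis enzymes gene3430, at 3439, 215, 2575 and 1786 (log2 ratio -3.05), and gene3431, at 4349, 505, 17480 and 2511 (log2 ratio -2.31), were neighbours and both lower. In vitamin B6 metabolism the SNZ-family row gene1241 had 9245, 5268, 2137 and 1405 (log2 ratio 1.91). It stands beside gamma-butyrobetaine dioxygenase in the table.

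Rows for SAGA, ADA and other histone acetylation or deacetylation complexes numbered 32, Gcn5 itself left out. Of these 3 were higher and 1 was lower, with a median of 0.25. The 12.5% called in either direction was under the 17.7% of all rows. The higher rows were the NuA3 catalytic subunit (gene1904) at 1248, 2238, 878 and 517 (log2 ratio 2.11), a MYST3-like acetyltransferase (gene3119) at 3748, 9983, 8951 and 3376 (log2 ratio 1.56), and an Rpd3 complex component (gene4660) at 1.37. The lower row was a class II deacetylase (gene2733) at -1.12. Of 10 core histone rows 3 were called (30%, beside 17.7% of all rows in either direction). The neighbouring pair gene1886 and gene1887 was lower at -2.19 and -2.11, and gene1624 was higher at 1.72. In the Snf1 group 1 of 7 rows was higher, a glucose repression factor (gene5053) at 3974, 4412, 3557 and 1751 (log2 ratio 1.33), and the kinase row (gene2489) had -0.88. The 14.3% called in that group was near the 17.7% of all rows. Chromatin remodelers had 0 higher and 1 lower of 31, cytosolic ribosomal proteins 0 and 3 of 80, the mitochondrial ribosome 1 and 1 of 57, aminoacyl-tRNA synthetases 0 and 0 of 16, and the proteasome 1 and 0 of 26, all under the background share in both directions. Ribosomal protein rows still leaned to one side, with 67 of 80 below 0 and a median of -0.36, and proteasome rows to the other, with a median of 0.52.

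Ribosome biogenesis had 2 higher and 5 lower of 80 rows, and DNA replication and repair 4 and 4 of 78. The shares called in either direction, 8.75% and 10.3%, were below the 17.7% of all rows. Translation factors had 2 higher of 31, both described as initiation factor IF-2, gene1743 at 2046, 23853, 2921 and 2584 (log2 ratio 3.21) and gene1345 at 1.70. The 6.45% of translation factors called in either direction was under the 17.7% of all rows. Cyclins and cell cycle rows had 4 higher and 4 lower of 48, and the 16.7% called was near that of all rows. The lower ones were a G1-type Pho85 cyclin (gene2965) at 1782, 394, 289 and 3052 (log2 ratio -2.95), a cell cycle phosphatase (gene604) at -2.09, CLN1 (gene1595) at -1.67 and a second G1 cyclin (gene868) at -1.29, and a B-type cyclin (gene1296) was higher at 1.87. In sulfur and methionine metabolism 2 of 13 were higher and 3 lower, from methylenetetrahydrofolate reductase (gene1819) at -2.52 to a sulfite pump (gene1972) at 2.40. Riboflavin, vitamin B6 and thiamine synthesis had 3 higher and 5 lower of 18. Mating, meiosis and sporulation had 3 higher and 7 lower of 44. The shares called in either direction were 38.5% for sulfur and methionine rows and 44.4% for the vitamin rows. Mating, meiosis and sporulation rows had 22.7%, beside 17.7% of all rows.

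The wild-type level, which did not enter the ratio, was set beside each row past the 2-fold rule to see which deletion stood apart from it. Of the 437 higher rows the wild type was within 1.5-fold of the Gcn5 deletion alone in 241 and of the Mxr1-labelled library alone in 72. It lay between the 2 deletions and apart from both in 73, below both in 35, above both in 6 and near both in 10. Of the 525 lower rows it was near the Gcn5 deletion alone in 237, near the Mxr1-labelled library alone in 107, between them in 101, above both in 64, below both in 7 and near both in 9. Scaling by total counts moved this division, to 168 near the Gcn5 deletion alone and 134 near the Mxr1-labelled library alone among higher rows, and to 291 and 50 among lower rows. The pattern differed among the rows at least 10-fold apart. For the 35 higher ones the wild type was near the Gcn5 deletion alone in 14, between in 10 and below both in 10. For the 32 lower ones it lay between the 2 deletions in 21, near the Gcn5 deletion alone in 4 and near the Mxr1-labelled library alone in 4. These counts compare 3 single libraries and say nothing of how a second culture would fall.

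**Figure D4:**
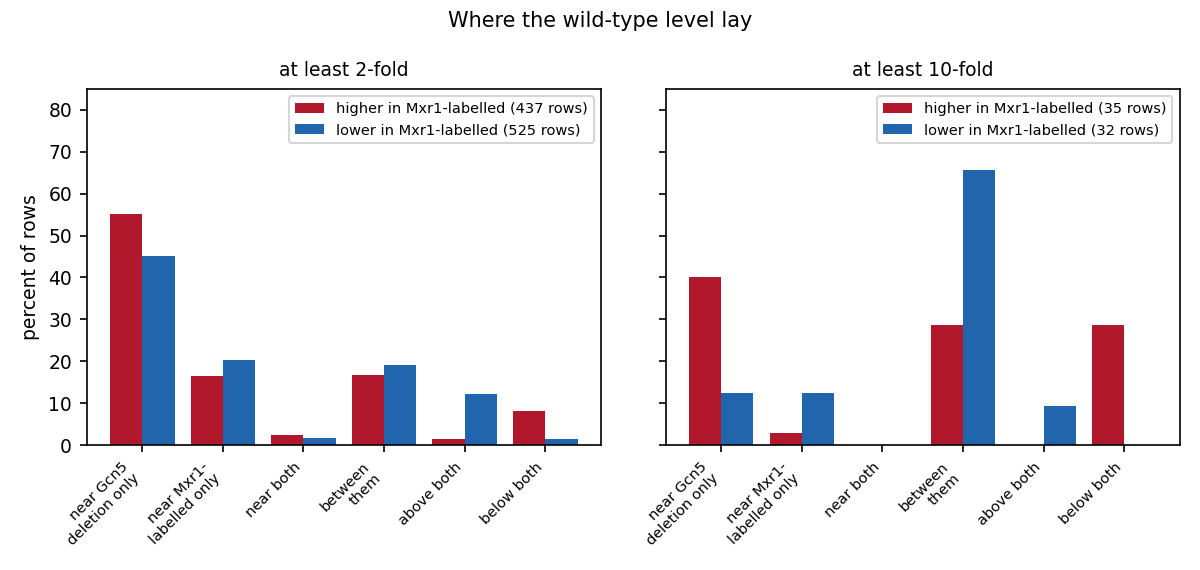
Percent of rows (bars, from 0) by where the wild-type level lay relative to the 2 deletion libraries, for rows at least 2-fold apart (left) and at least 10-fold apart (right), higher (red) or lower (blue) in the Mxr1-labelled library. Near means within 1.5-fold. At 2-fold the wild type was near the Gcn5 deletion alone in 55.1% of higher and 45.1% of lower rows, shares that depend on the scaling, and at 10-fold it lay between the 2 deletions in 65.6% of the lower rows.

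The 2-fold limit divided a continuous spread. Just inside it were gene4302 (HAD-like) at 3290 against 1644 scaled counts and gene3765 (cohesin subunit SA-1) at 4073 against 2032 on the higher side, and gene112 (ribosomal L11/L12e domain) at 337 against 674 and gene832 (RNA polymerase) at 1359 against 2718 on the lower side, the Mxr1-labelled library first. Just outside were gene3869 (carboxylic acid transporter) at 35036 against 17533 and gene4940 (CCR4-NOT subunit) at 7674 against 3845, and gene4751 (Rossmann fold) at 1763 against 3524 and gene251 (membrane protein retention) at 1911 against 3815. At the count limit, the highest mean left out was 18.5 counts (gene4011) and the lowest kept was 24 (gene1064).

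Many rows past the 2-fold rule had a neighbour in the table's order that was called the same way. This held for 208 of the 437 higher rows (47.6%) and 183 of the 525 lower rows (34.9%). Of all rows 8.06% were called higher and 9.69% lower, and the share that placement alone would give was not computed. Beside Crc1 (gene2069) stood a gamma-tubulin complex component (gene2068) at 1083, 9873, 1091 and 823 with a log2 ratio of 3.58. Beside the outer mitochondrial carnitine acetyltransferase (gene890) stood an enolase-domain row (gene891) at 1344, 12429, 1022 and 977 (log2 ratio 3.67), and beside malate synthase 2 (gene5220) a nucleotide phosphodiesterase (gene5221) at 646, 14193, 490 and 1218 (log2 ratio 3.54). Each of these held fewer counts, not corrected for length, than its neighbour in all 4 libraries. The files do not state whether reads were assigned by strand or how overlapping rows were treated, so the values of gene2068, gene891 and gene5221, and of Gcn4 beside isocitrate lyase, are uncertain, and the part of read-through or overlap in them was not tested.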

How the data were processed

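RNA was measured in 1 library per strain, and the authors deposited whole-number read counts per gene for 4 libraries. Per the submitters' processing notes the tools were DESeq2, featureCounts 1.6.4, Bowtie2, fastp 0.19.6 and bcl2fastq 2.19.0.316, with roles not given. The genome build, annotation and strand setting are not given in the sources used here. Counts were read as deposited, and rows with a mean under 20 were left out. Size factors were medians of ratios over the 4 libraries, and 0.5 was added to each count before the log2 ratio. The 95% intervals are exact Clopper-Pearson limits (scipy 1.17.1) and cover counting error only, since reads are not independent molecules. Scripts were tested on simulated data. TMM and upper-quartile factors came from edgeR 4.0.16.

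The rows, the 36 lists and the rules were chosen with earlier results of these data known. Lists are description patterns, and members that named another pathway were dropped in 24 lists after matching. Named rows are those of the deleted genes, the methanol list, the 15 highest and 15 lowest described rows (1 and 2 undescribed ones were passed over), up to 5 members of each list and rows at the limits. Others were chosen after their values were seen, also where the text does not say so.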

Additional observations from a re-analysis of the deposited data

How the results depend on the processing

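No paired analysis was possible because each strain had 1 library, and for the same reason none could be left out. Under the other scalings (TMM, total counts, upper quartile, median of ratios over the 2 deletion libraries or without the 20 highest rows), without a filter, with a mean of at least 100 counts, with 5 added to each count and on protein-coding rows only, the counts of higher and lower rows stayed within 1.5 times 437 and 525. A 4-fold rule gave 92 higher and 138 lower rows. Leaving out rows beside a row called the same way, an alternative added after the data were seen, gave 229 higher and 342 lower. The wild type was near the Mxr1-labelled library alone in 134 higher and 50 lower rows with total counts, in place of 72 and 107, and near the Gcn5 deletion alone in 168 and 291, in place of 241 and 237. A narrower limit for near gave 153 and 151 rows near the Gcn5 deletion alone and 43 and 64 near the Mxr1-labelled library alone, higher before lower.

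No named row past the 2-fold rule changed direction under the scalings or with 5 added. Named rows that left the 2-fold rule under at least 1 of these lay next to the limit (gene112, gene832, gene852, gene2453, gene3765, gene3958, gene4302 and gene4526). Of 72 list counts (36 lists, 2 directions), 4 moved by over 1.5 times with upper-quartile factors and 1 with total counts. With the lists as first matched 9 did, among them ethanol and aldehyde enzymes (4 higher, not 2), glycolysis (2 higher, not 0) and amino acid synthesis (4 lower, not 1), and the median of the glyoxylate list was 1.01.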

Other observations

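Rows near the ends of the 4 locus-tag series were more often on the lower side. Of 159 kept rows within 20 rows of an end, 34 (21.4%) were lower in the Mxr1-labelled library than in the Gcn5 deletion and 12 (7.55%) were higher. Of the 5261 rows elsewhere, 491 (9.33%) were lower and 425 (8.08%) higher. The distance of 20 rows was chosen after the data were seen, and the order of locus tags was taken as the order along the chromosome, which the files do not state. Of the 13 adhesin rows 4 were within that distance, 3 of them among the lower ones, so most end rows on the lower side were not adhesins.

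Mating-type rows were low in number of counts and higher in the Gcn5 deletion. The row for HML's silenced ALPHA2 copy (gene4439), a locus kept silent in Saccharomyces cerevisiae by Sir proteins, had 57, 32, 81 and 664 unscaled counts in the wild type, the Mxr1-labelled library, the Gal83 deletion and the Gcn5 deletion, and a log2 ratio of -4.51 with an interval of -5.09 to -4.02. Its neighbour, the mating-type protein MAT-1 row (gene4438), had 297, 105, 274 and 758, and a log2 ratio between -3.32 and -2.71. The Gcn5 deletion was the highest of the 4 libraries for both rows. The copies at mating-type loci can share sequence, so the division of reads between them is uncertain.

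Of 156 rows of the misc_RNA type 24 (15.4%) passed the 2-fold rule in either direction, against 933 of 5251 protein-coding rows (17.8%).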
